A study of Mus musculus with 16 samples.

Results

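The lysyl oxidases and a set of matrix proteins that surround collagen were followed in differentiating mouse embryonic stem cells treated with hawthorn extract WS1442 or with its MeOH eluate. The 10 genes were Lox, Loxl1, Loxl2, Loxl3 and Loxl4, the small leucine-rich proteoglycans Bgn (biglycan), Dcn (decorin) and Lum (lumican), and the adhesive glycoproteins Fn1 (fibronectin) and Postn (periostin), out of 47534 gene names on the array. They were chosen by name, and every probe of each was taken: 4 probes carry the symbol in the array's gene column and 10 were named through their RefSeq accession, 14 in all. Of the 10 genes, 8 had a probe that cleared the background on all arrays of 1 group or more and entered the test, among 31076 genes tested. Lum and Postn did not.

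The cells were CGR8-Myh6-GFP mESCs, a mouse embryonic stem cell line with a GFP reporter under the Myh6 promoter, differentiated on 384-well plates and treated from day 4 of differentiation. The 6 groups were vehicle (DMSO) for 6 h and for 24 h with 2 samples each, WS1442 at 0.25 mg/ml for 6 h and for 24 h with 3 samples each, and MeOH eluate at 0.1 mg/ml for 6 h and for 24 h with 3 samples each. WS1442 is a preparation of Crataegus, and the MeOH eluate is the fraction of it that methanol washed from a chromatography column, so the preparations were given at different doses. All 16 samples share the line, the reporter and the day of treatment, and the labels do not say whether samples of a group came from separate differentiations, so the p-values measure the spread between these samples.

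Between 55.1% and 63.0% of the gene spots of an array were well above background, and no spot was saturated. The 6 h arrays lay on 1 slide and the 24 h arrays on the other, so slide and time cannot be told apart. Each contrast below is taken within a slide, and levels at 6 h and 24 h are given side by side without a test. Labelling differed between groups at both times. Cyanine 3 incorporation at 24 h was 25.8 to 26.1 pmol per microgram in DMSO, 27.1 to 30.3 in MeOH eluate and 31.8 to 32.8 in WS1442. At 6 h it was 23.5 to 26.4 in DMSO, 24.7 to 29.5 in MeOH eluate and 26.5 to 27.6 in WS1442. The part of labelling in the results was not tested. RNA integrity numbers ran from 8.6, in the WS1442 24 h group, to 10. The 7 pluripotency markers (Pou5f1, Nanog, Sox2 and others) and the 7 markers of primitive streak and early mesoderm (Eomes, Mixl1, Mesp1 and others) were well above background on every array. Depending on the group, 5 or 6 of the 8 cardiomyocyte markers and 6 or 7 of the 8 fibroblast and mesenchyme markers were so on all its arrays. The cardiomyocyte gene Myh7 and the fibroblast collagen gene Col3a1 were on none.

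Lysyl oxidases are copper enzymes that oxidise lysine side chains of collagen and elastin, which then form the cross-links that stiffen the matrix. Biglycan, decorin and lumican bind collagen fibrils and shape their assembly, and biglycan and decorin also bind growth factors of the TGFβ family. Fibronectin is an early matrix of the embryo on which mesoderm cells migrate, and periostin is a matricellular protein of valves and of injured heart.

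What the array measured is a short stretch of each transcript, and the probes behind the results are shown so that the signals can be tied to a sequence. The Loxl2 probe, 49 bases long, holds 1 reading frame without a stop codon and is given whole, while for the others a stretch of 30 bases from the probe is given. Such a frame does not set Loxl2 apart: the whole Loxl1 probe holds 3, and the Bgn, Dcn and both Fn1 probes shown hold 2 each. The capitals in the Bgn probe mark ATTAAA, a variant of the polyadenylation hexamer AATAAA, which is present on the given strand of 2.49% of the 60273 probes; the remaining probes carry no capitals.
Loxl1: acccaaaccacagggattctggatgccaga
Loxl2: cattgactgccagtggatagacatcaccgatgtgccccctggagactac
Loxl3: tctcccatcttaatagttcaccttctgcct
Loxl4: ggggaggaatgagaaggtgtgacccagact
Bgn: gtctctcaATTAAAgaaacactgtgcaata
Dcn: tgtgtctatgtgcgttctgccattcaactt
Fn1, first probe: gattatttttataagcacatgccaacgctt
Fn1, second probe: ataccttacacacacttgtgtcttaataag

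In the RefSeq annotation of GRCm38.p6 the genes lie on different chromosomes except Dcn and Lum, which are both on chromosome 10 (Dcn at 97479500 to 97518163 and Lum at 97565501 to 97572703). Loxl2 is on chromosome 14 (69608692 to 69695834), Loxl3 on chromosome 6 (83034205 to 83052566), Loxl4 on chromosome 19 (42592279 to 42612806), Loxl1 on chromosome 9 (58287723 to 58313212) and Bgn on chromosome X (73483601 to 73495936). The second Fn1 probe belongs to a separate Ensembl transcript and is placed by the array files at chr1:71650690-71650749 of mm9, an older build that was not converted.

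**Figure D1:**
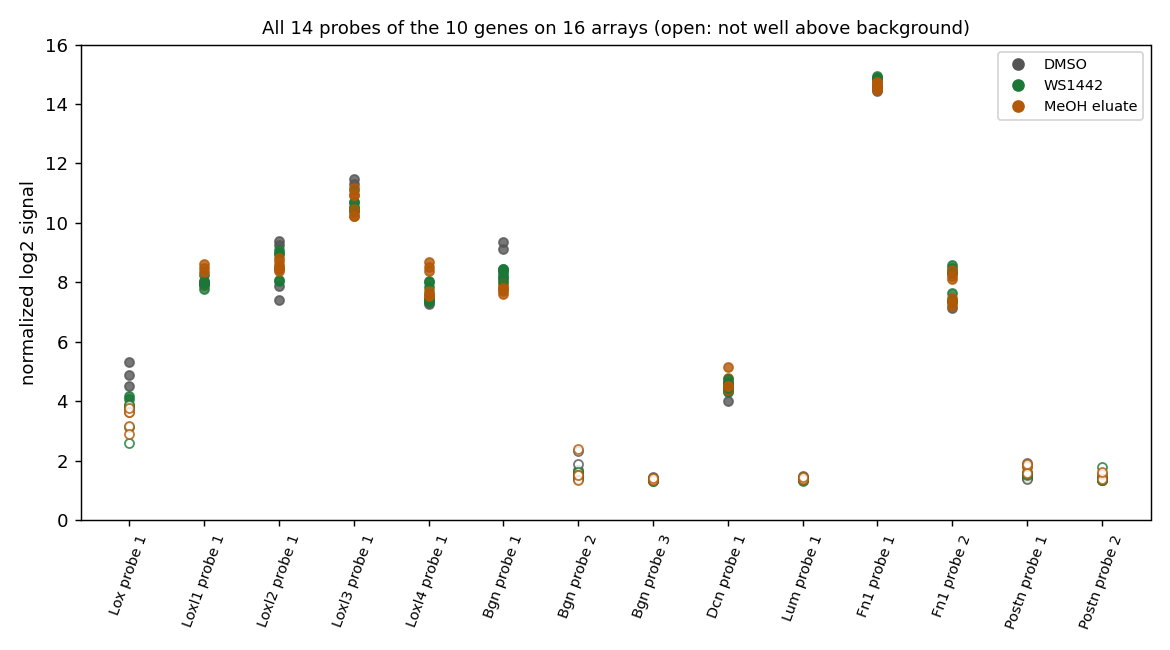
Normalized log2 signal (y axis) of each of the 14 probes (x axis) on the 16 arrays, 1 point per array, coloured by treatment over both times, open where the spot was not well above background. Bgn probes 2 and 3, Lum and both Postn probes are open circles on all arrays, and Lox is open on 8 of 16. Levels of different probes are not comparable.

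Signal well above background on all 16 arrays came from 8 probes, 1 each for Loxl1, Loxl2, Loxl3, Loxl4, Bgn and Dcn and both for Fn1. The Lox probe was so on 8 of 16 arrays. A further 5 probes were never well above background, namely the Lum probe, both Postn probes and the 2 Bgn probes to Ensembl transcripts, whose signals reached at most 2.37 on the log2 scale. For lumican and periostin the arrays therefore give no change in either direction.

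A gene was called changed where its adjusted p was under 0.05 in a linear model over all 16 arrays, corrected over all genes tested. At 6 h, WS1442 changed 3 of the 8 tested genes (Loxl2 and Loxl4 higher, Loxl3 lower) and the MeOH eluate 5 (Loxl2 and Loxl4 higher, Lox, Loxl3 and Bgn lower). Over all genes tested the share called was 5.31% for WS1442 and 16.9% for the MeOH eluate. At 24 h, WS1442 changed 1 of the 8 (Bgn lower) where 24.5% of all genes were called, and the MeOH eluate 4 (Loxl1 higher, Loxl2, Bgn and Fn1 lower) where 17.8% were called. The count for WS1442 at 24 h is thus below the background share, but with 8 genes all of these counts, this one included, are small numbers. The 5 for the MeOH eluate at 6 h include Lox, which cleared the background on all arrays only in the DMSO groups, where its signal is highest.

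By the limits of fold over 2 and unadjusted p under 0.05, 1 gene passed for WS1442 at 6 h (Lox, 0.434% of all genes), 2 for the MeOH eluate at 6 h (Lox and Loxl4, 2.09%), 0 for WS1442 at 24 h (2.04%) and 1 for the MeOH eluate at 24 h (Bgn, 2.94%). Lox passed the background filter only through the DMSO groups, where its signal is highest, so its place in these counts is not evidence of a fall. At 0 for WS1442 at 24 h, 1 gene was still called by adjusted p, and 2 of the 8 (Bgn and Loxl2) had an unadjusted p under 0.05. The comparisons of the preparations at one time point share their DMSO arrays, so their values stand side by side here and are not independent of each other. Groups without overlap were common among all genes. WS1442 and DMSO at 6 h did not overlap for 5 of the 8 genes and for 11023 of all 31076. For the MeOH eluate at 6 h the counts were 5 and 15563. At 24 h they were 2 and 15891 for WS1442, and 5 and 13466 for the MeOH eluate. A lack of overlap below does not by itself set a gene apart.

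**Figure D2:**
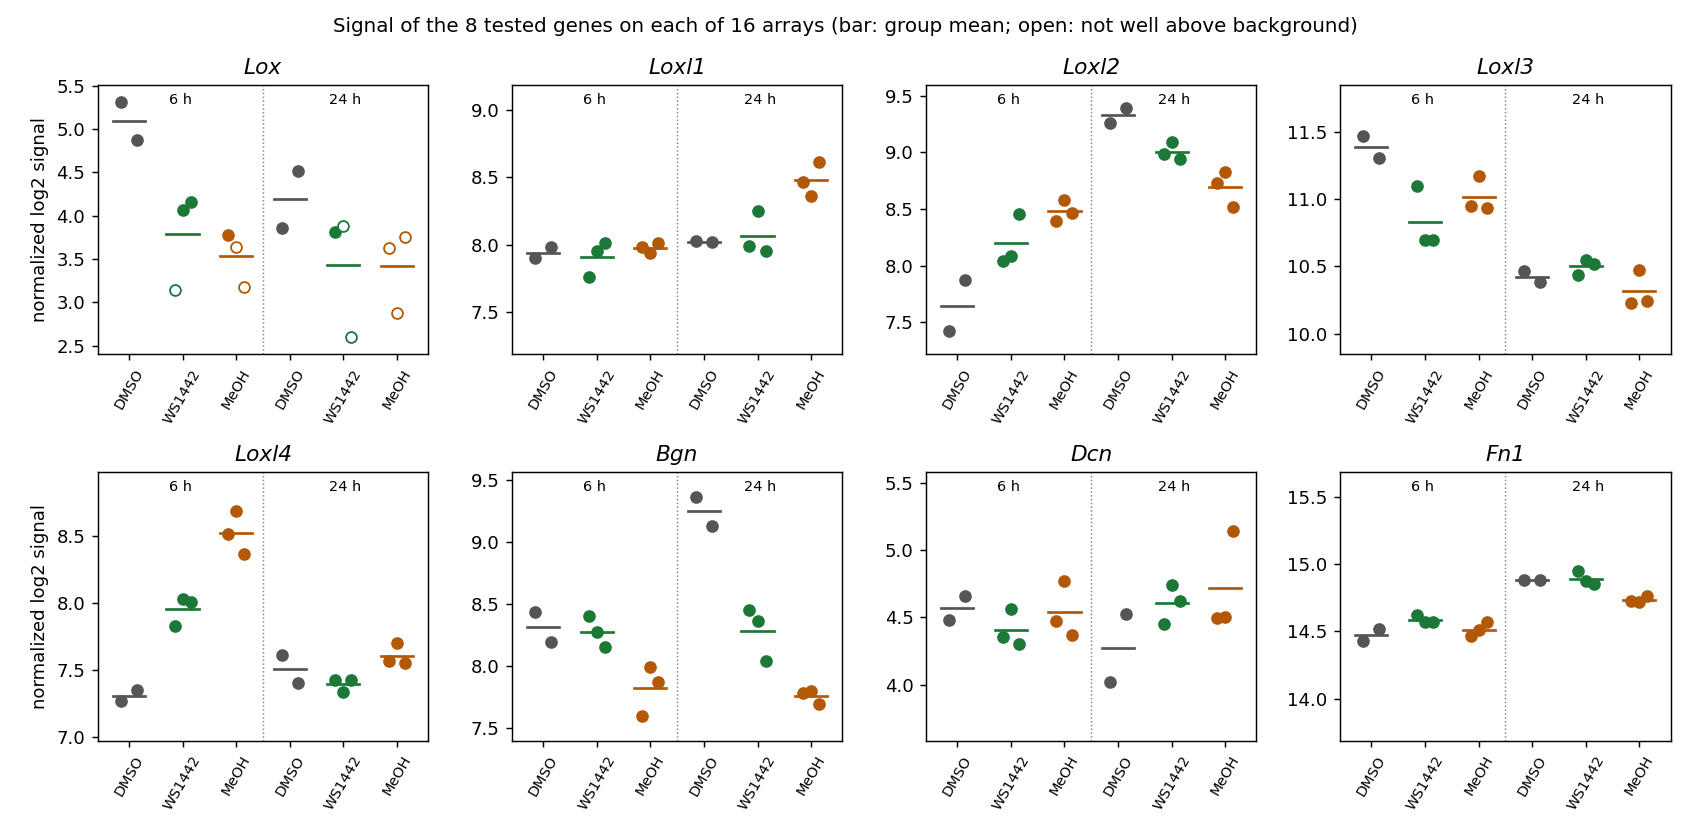
Normalized log2 signal (y axis, a separate scale for each gene) of the 8 tested genes in the 6 groups (x axis), 1 point per array with a bar at the group mean. All MeOH eluate arrays lie above both DMSO arrays for Loxl4 and Loxl2 at 6 h, and below them for Loxl2 and Bgn at 24 h.

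Among the cross-linking enzymes, Loxl4 had the larger of the 2 called rises at 6 h with either preparation. Its normalized log2 signal at 6 h was 7.27 and 7.35 in DMSO, 7.83, 8.03 and 8.01 in WS1442, and 8.51, 8.68 and 8.37 in MeOH eluate. The 3 groups did not overlap, in the order DMSO, WS1442, MeOH eluate. The log2 fold change against DMSO was 0.64 for WS1442 (SE 0.10, 95% interval 0.43 to 0.86, adjusted p = 0.00311) and 1.21 for the MeOH eluate (SE 0.10, 0.99 to 1.43, adjusted p = 2.42e-06), that is 1.56-fold and 2.31-fold. The WS1442 call missed the threshold without DMSO 6 h replicate 1, at 0.61 with an adjusted p of 0.0568. At 24 h the signals were 7.61 and 7.41 in DMSO, 7.43, 7.34 and 7.43 in WS1442, and 7.57, 7.70 and 7.55 in MeOH eluate. Each treated group then overlapped DMSO, and the log2 fold changes were -0.11 (95% interval -0.33 to 0.11) and 0.10 (-0.12 to 0.31), neither called. The MeOH eluate arrays lay above the WS1442 arrays, with a log2 difference of 0.21 that was not called (adjusted p = 0.153).

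Loxl2, which encodes an enzyme known also to act on collagen IV of basement membranes, was higher than DMSO at 6 h with both preparations and lower at 24 h with the MeOH eluate. At 6 h the log2 signals were 7.42 and 7.87 in DMSO, 8.04, 8.09 and 8.46 in WS1442, and 8.39, 8.58 and 8.47 in MeOH eluate. All 6 treated arrays lay above both DMSO arrays, and the DMSO arrays differed more from each other than the MeOH eluate arrays did. The log2 fold change was 0.83 for the MeOH eluate (SE 0.14, adjusted p = 0.00103) and 0.55 for WS1442 (SE 0.14, adjusted p = 0.0347); the latter fell to 0.32 with an adjusted p of 0.51 without DMSO 6 h replicate 1, and to 0.42 with an adjusted p of 0.128 without WS1442 6 h replicate 3. The WS1442 call was also lost without the background filter (adjusted p = 0.0692), within the time point (0.117), without a variance trend (0.0725), with the replicate block (0.0652) and with the row of the slide as a block (0.0595). At 24 h the log2 signals were 9.26 and 9.39 in DMSO, 8.98, 9.09 and 8.94 in WS1442, and 8.73, 8.83 and 8.52 in MeOH eluate. The 3 groups did not overlap at 24 h, with DMSO on top. Loxl2 fell by 0.64 on the log2 scale with the MeOH eluate (SE 0.14, adjusted p = 0.00492), while the difference for WS1442, -0.32 (95% interval -0.62 to -0.03), had an adjusted p of 0.108.

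Loxl3 was lower in treated cells at 6 h and not called at 24 h. Signals at 6 h were 11.47 and 11.30 in DMSO, 11.10, 10.69 and 10.70 in WS1442, and 10.95, 11.17 and 10.93 in MeOH eluate, with both DMSO arrays above every treated array. It fell by 0.56 with WS1442 (SE 0.12, adjusted p = 0.0140) and by 0.37 with the MeOH eluate (SE 0.12, adjusted p = 0.0406). Both calls were lost within the time point (adjusted p = 0.0686 and 0.0975) and with the replicate block (0.0646 and 0.118). The MeOH eluate call was also lost without the background filter (0.0823) and without a variance trend (0.0769). Leaving out WS1442 24 h replicate 2 or 3 gave 0.0512 and 0.0522 for it. Without DMSO 6 h replicate 1 the adjusted p rose to 0.205 and 0.316. Without DMSO 6 h replicate 2 it was 0.0659 for the MeOH eluate, without its replicates 1 and 3 it was 0.108 and 0.128, and leaving out WS1442 6 h replicate 3 gave 0.0574 for WS1442. At 24 h all signals lay between 10.23 and 10.55, and the log2 fold changes were 0.08 (95% interval -0.17 to 0.32) for WS1442 and -0.11 (-0.35 to 0.14) for the MeOH eluate.

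Loxl1, an enzyme needed for elastic fibre upkeep, differed at 24 h with the MeOH eluate. Its log2 signals at 24 h were 8.03 and 8.02 in DMSO, 7.99, 8.25 and 7.95 in WS1442, and 8.47, 8.36 and 8.62 in MeOH eluate. The 3 MeOH eluate arrays lay above all others of that time, with a log2 fold change of 0.46 (SE 0.10, adjusted p = 0.00547), or 1.37-fold. For WS1442 it was 0.04 (95% interval -0.18 to 0.26). At 6 h the 8 arrays lay between 7.76 and 8.01, and the log2 fold changes were -0.04 and 0.04 with 95% intervals of -0.25 to 0.18 and -0.18 to 0.25.

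Lox, the founding member of the family, gave a signal near the lower limit of the arrays. At 6 h the log2 signals were 5.31 and 4.88 in DMSO, 3.14, 4.06 and 4.16 in WS1442, and 3.78, 3.64 and 3.18 in MeOH eluate. Both DMSO arrays lay above all 6 treated arrays, and the probe was well above background on 2 of 2, 2 of 3 and 1 of 3 arrays of these groups. Only in the DMSO groups was it so on every array, so it entered the test through the groups where its signal is highest. The lower values in treated cells are therefore not independent of the filter, and the fold for the MeOH eluate rests on 1 of 3 arrays measured. The log2 fold change was -1.56 for the MeOH eluate (SE 0.44, 95% interval -2.50 to -0.63, adjusted p = 0.0239) and -1.31 for WS1442 (SE 0.44, -2.24 to -0.38, adjusted p = 0.100). The call for the MeOH eluate was lost without DMSO 6 h replicate 1 (adjusted p = 0.205), without DMSO 6 h replicate 2 (0.0609) and without MeOH eluate 6 h replicate 3 (0.0844). Values depended on the background correction: with normexp the log2 fold change was -0.38 for the MeOH eluate (adjusted p = 0.00183) and -0.34 for WS1442, which was then called (adjusted p = 0.0142). At 24 h, DMSO gave 3.86 and 4.52, and none of the 3 MeOH eluate arrays was well above background. The log2 fold change as measured was -0.77 (95% interval -1.70 to 0.16, adjusted p = 0.271), so no difference from DMSO was shown. The bound from the means alone, at least 1.26-fold lower than DMSO, leaves out the spread between arrays. The bound sets the DMSO mean of 4.19 against the lowest signal well above background on each MeOH eluate array, or the probe's own signal if higher; the MeOH eluate mean as measured was 3.42.

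Bgn, the one proteoglycan of the set with clear signal, fell with both preparations at 24 h. The log2 signals at 24 h were 9.37 and 9.13 in DMSO, 8.45, 8.36 and 8.05 in WS1442, and 7.78, 7.80 and 7.69 in MeOH eluate. The 3 groups did not overlap. Bgn fell by 0.96 on the log2 scale with WS1442 (SE 0.14, 95% interval -1.25 to -0.67, adjusted p = 0.000197), a 1.95-fold difference, and by 1.49 with the MeOH eluate (SE 0.14, -1.78 to -1.20, adjusted p = 3.35e-06), a 2.81-fold difference.

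At 6 h the Bgn signals were 8.44 and 8.19 in DMSO, 8.41, 8.28 and 8.15 in WS1442, and 7.60, 7.99 and 7.87 in MeOH eluate. WS1442 overlapped DMSO, with a log2 fold change of -0.04 (95% interval -0.33 to 0.26), whereas Bgn fell by 0.49 with the MeOH eluate (SE 0.14, adjusted p = 0.0227). The latter call was lost without DMSO 6 h replicate 1 (adjusted p = 0.253) and without MeOH eluate 6 h replicate 1 (0.0820). In DMSO the mean went from 8.31 at 6 h to 9.25 at 24 h, in WS1442 from 8.28 to 8.29 and in MeOH eluate from 7.82 to 7.76, on different slides.

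Of the 8 fibroblast and mesenchyme markers, several moved with Bgn at 24 h. Their summed linear signal was 4007 to 4262 in DMSO, 2649 to 2843 in WS1442 and 2551 to 2703 in MeOH eluate. With 7 of the 8 tested, 3 were lower and 1 higher with WS1442, and 4 lower and 1 higher with the MeOH eluate. Col1a1 and Col1a2, the chains of collagen I, had log2 fold changes of -1.09 and -0.85 with WS1442 and -1.13 and -1.01 with the MeOH eluate, while Twist1 was higher, at 0.34 and 0.47. At 6 h the summed signal was 2544 to 2828 in DMSO, 2528 to 2698 in WS1442 and 2288 to 2462 in MeOH eluate. In these whole-culture samples fewer cells of a type and less RNA per cell cannot be told apart, and the part of these markers in the Bgn result was not tested. Other marker sums also differed between the groups at 24 h. In the order DMSO, WS1442 and MeOH eluate, the 8 cardiac progenitor markers summed to 1494 to 1536, 1282 to 1409 and 911 to 1043, and the 8 cardiomyocyte markers to 1211 to 1859, 857 to 963 and 713 to 741. The 6 blood markers summed to 642 to 660, 442 to 459 and 348 to 448, whereas the 6 neuroectoderm markers were higher in treated cells, 6686 in both DMSO arrays, 8164 to 8524 and 7831 to 8946. Their part in the 24 h results was not tested either.

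The lysyl oxidases had no common direction at 6 h, and the primitive streak and early mesoderm markers also differed between the groups then. Their summed linear signal at 6 h was 4954 to 4991 in DMSO, 3232 to 3490 in WS1442 and 1944 to 2311 in MeOH eluate, with 3 of 7 markers lower for WS1442, and 4 lower and 1 higher for the MeOH eluate. At 24 h it was 3965 to 4033, 2965 to 3230 and 2452 to 2632. The 9 visceral and parietal endoderm markers were ordered alike at 6 h, 10720 to 10840 in DMSO, 9519 to 9909 in WS1442 and 8152 to 8873 in MeOH eluate, with 1 of 8 tested lower for WS1442 and 5 of 8 for the MeOH eluate. The summed signal of the 5 smooth muscle markers was ordered the other way at 6 h. It was 61450 to 65690 in DMSO, 66380 to 74890 in WS1442 and 75440 to 76120 in MeOH eluate. A sum follows its brightest genes. The median log2 fold change of the 5 markers was 0.19 for WS1442 and -0.10 for the MeOH eluate. Of the 5 markers, 0 were called for WS1442 and 2 were higher for the MeOH eluate. The part of all these markers in the lysyl oxidase results was not tested.

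Dcn gave a low signal, between 4.02 and 5.14 on all 16 arrays. At 24 h the values were 4.02 and 4.52 in DMSO, 4.45, 4.74 and 4.62 in WS1442, and 4.50, 4.50 and 5.14 in MeOH eluate, with overlap between the groups. None of its contrasts was called, and the intervals were wide: the log2 fold change at 24 h was 0.34 (95% interval -0.17 to 0.84) for WS1442 and 0.44 (-0.06 to 0.95) for the MeOH eluate.

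Fn1 was bright and nearly constant within a time point. On its first probe the log2 signals at 24 h were 14.88 and 14.88 in DMSO, 14.95, 14.87 and 14.85 in WS1442, and 14.72, 14.72 and 14.76 in MeOH eluate. Fn1 fell by 0.15 with the MeOH eluate (SE 0.04, adjusted p = 0.0224), a 1.11-fold difference, and this call was lost without either DMSO 24 h array (adjusted p = 0.117 and 0.0902) and without MeOH eluate 24 h replicate 1 or 2 (0.0620 and 0.0595), as well as without a variance trend (0.0869), with array weights (0.0717) and with the replicate block (0.0831). Scaling arrays to their 75th percentile gave -0.39 for the MeOH eluate (adjusted p = 0.000190). For WS1442 at 24 h the log2 fold change was 0.01 (95% interval -0.08 to 0.10), and its direction turned to -0.29 (adjusted p = 0.00185) under the same scaling. The second probe was dimmer, 7.13 to 8.59, and gave -0.07 (95% interval -0.33 to 0.19) for the MeOH eluate at 24 h, not called. At 6 h neither probe was called with either preparation.

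**Figure D3:**
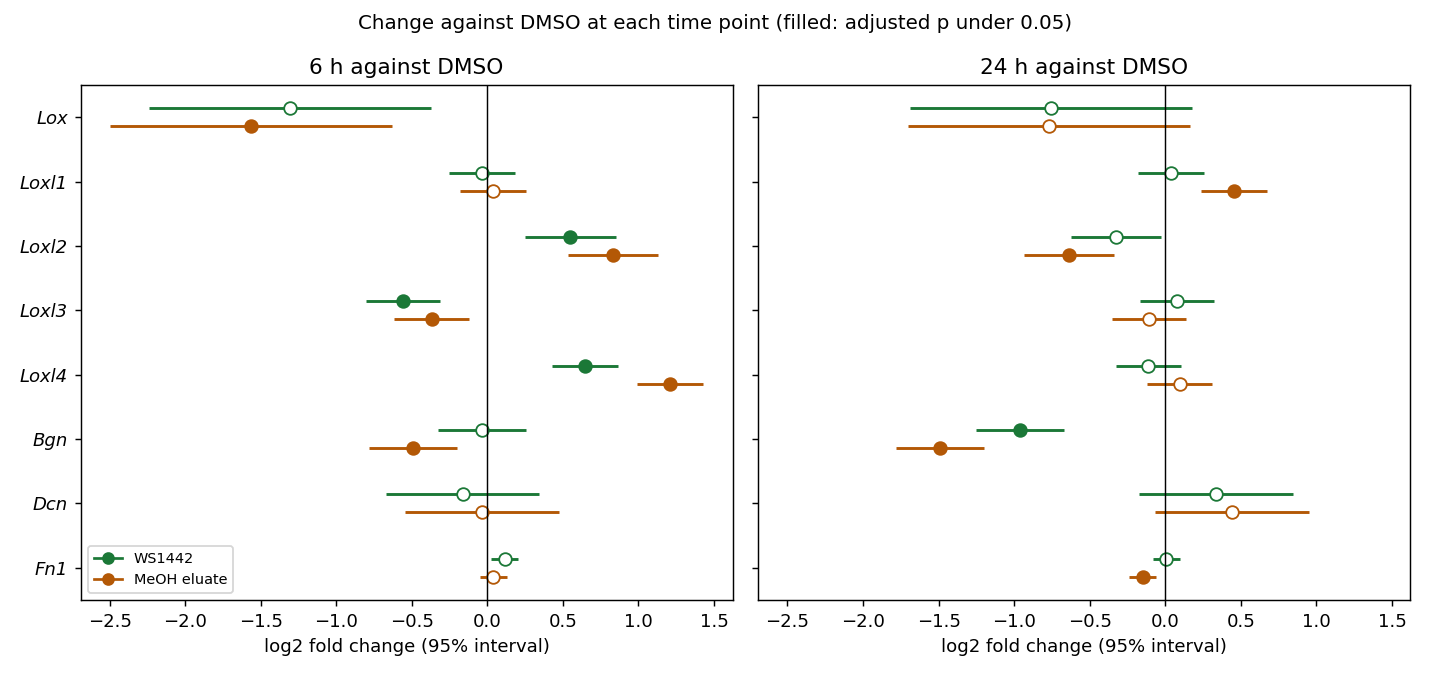
Log2 fold change against DMSO (x axis) of the 8 tested genes (y axis) for WS1442 and MeOH eluate at 6 h (left) and 24 h (right), with 95% intervals, filled where the adjusted p was under 0.05. Loxl4 reaches 1.21 at 6 h and Bgn -1.49 at 24 h with the MeOH eluate, Loxl2 goes from 0.83 at 6 h to -0.64 at 24 h with it, and Fn1 with WS1442 at 24 h is 0.01 but -0.29 under 75th percentile scaling.

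The preparations, given at different doses (0.25 and 0.1 mg/ml), were also set against each other. At 6 h, 2 of the 8 genes differed, where 12.2% of all genes did: Loxl4 was higher in the MeOH eluate by 0.56 on the log2 scale (SE 0.09, adjusted p = 0.00178) and Bgn was lower by a log2 difference of -0.46 (SE 0.12, adjusted p = 0.0270). The Bgn difference at 6 h missed the threshold when 1 of several arrays was left out, with adjusted p of 0.0617 and 0.0650 without WS1442 replicates 1 and 2, and 0.116 and 0.0604 without MeOH eluate replicates 1 and 3. At 24 h, 3 of the 8 differed, where 14.4% of all genes did. Loxl1 was higher in the MeOH eluate by 0.42 (SE 0.09, adjusted p = 0.00756), and Bgn and Fn1 were lower, with log2 differences of -0.53 (SE 0.12, adjusted p = 0.00995) and -0.16 (SE 0.04, adjusted p = 0.0128). The Fn1 difference was not called under 75th percentile scaling (-0.10, adjusted p = 0.217) or without a variance trend (adjusted p = 0.0581). For Loxl2 the difference was 0.28 at 6 h (95% interval 0.01 to 0.55, adjusted p = 0.154) and -0.31 at 24 h (-0.58 to -0.04, adjusted p = 0.117). For Lox the 95% intervals of the difference were wide, -1.09 to 0.58 at 6 h and -0.85 to 0.82 at 24 h. Since the doses differed, these values compare the preparations as given.

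Whether the effect of a preparation differed between the times was tested as the change against DMSO at 24 h minus that at 6 h. For WS1442, 4 of the 8 genes differed, where 12.4% of all genes did, and for the MeOH eluate 3 of the 8, where 7.48% did. Loxl2 gave -0.87 for WS1442 (SE 0.20, adjusted p = 0.0120) and -1.47 for the MeOH eluate (SE 0.20, adjusted p = 0.000295). Without DMSO 6 h replicate 1 the Loxl2 difference for WS1442 was -0.65 with an adjusted p of 0.0750. Loxl4 gave -0.76 (SE 0.14, adjusted p = 0.00525) and -1.11 (SE 0.14, adjusted p = 0.000203). Bgn gave -0.93 (SE 0.19, adjusted p = 0.00790) and -0.996 (SE 0.19, adjusted p = 0.00479). Loxl3 was called for WS1442, at 0.63 (SE 0.16, adjusted p = 0.0214), with an adjusted p of 0.106 without DMSO 6 h replicate 1, 0.0547 without DMSO 24 h replicate 1 and 0.0536 without DMSO 24 h replicate 2. For Loxl1 with the MeOH eluate the difference was 0.42 (95% interval 0.11 to 0.73, adjusted p = 0.0981), so its effect at 24 h was not shown to differ from that at 6 h. Each of these compares 2 slides only through changes taken within a slide.

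The other genes around collagen cross-linking, proteoglycans and fibronectin were counted over 7 lists, of which 99 genes were tested. Of these 99, 11 were called for WS1442 at 6 h (11.1%), 24 for the MeOH eluate at 6 h (24.2%), 38 for WS1442 at 24 h (38.4%) and 36 for the MeOH eluate at 24 h (36.4%), beside the shares of all genes given above. Single arrays moved these counts: the 11 for WS1442 at 6 h became 2 without DMSO 6 h replicate 1, 7 without DMSO 6 h replicate 2, and 6 and 2 without WS1442 6 h replicates 2 and 3. Without DMSO 6 h replicate 1 the 24 for the MeOH eluate at 6 h became 10, and without DMSO 24 h replicate 1 the 38 for WS1442 at 24 h became 17. The directions differed between lists.

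Genes of collagen processing, among them the lysyl hydroxylases, had more lower than higher calls at 24 h. Of 19 tested, 2 were higher and 2 lower with WS1442 at 6 h, and 4 higher and 3 lower with the MeOH eluate. At 24 h, 1 was higher and 8 lower with WS1442, and 1 higher and 9 lower with the MeOH eluate. The median log2 fold change of the list at 24 h was -0.10 and -0.26, beside 0.04 and 0.01 over all genes. P4ha1, a subunit of collagen prolyl 4-hydroxylase, had log2 fold changes of 0.34 and 0.46 at 6 h and -0.33 and -0.48 at 24 h, all 4 called, so that it lay on the same sides of DMSO as Loxl2. P4ha2 was called higher with the MeOH eluate at 6 h (0.58) and lower with both at 24 h (-0.34 and -0.66). Plod2, the lysyl hydroxylase of collagen telopeptides, was higher at 6 h (0.38 and 0.45) and lower with the MeOH eluate at 24 h (-0.35). Bmp1, the protease that trims procollagen and activates the lysyl oxidase precursor, was higher at 24 h (0.45 and 0.43), and its relative Tll1 was lower at 6 h (-0.60 and -0.86) and with the MeOH eluate at 24 h (-0.76). P3h2, a prolyl 3-hydroxylase, was lower at 24 h (-0.64 and -0.57), and Serpinh1, the collagen chaperone HSP47, was lower with WS1442 at 24 h (-0.41).

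Elastic fibre and microfibril genes had 0 of 16 called by limma for WS1442 at 6 h, with 2 at an unadjusted p under 0.05, and 1 called for the MeOH eluate (Efemp1, -0.46). Efemp1 was higher with the MeOH eluate at 24 h (0.35). At 24 h, 2 were higher and 4 lower with WS1442, and 1 higher and 4 lower with the MeOH eluate. Fbln2, encoding fibulin 2, was lower by log2 fold changes of -0.73 and -1.36, and Efemp2, the fibulin that brings lysyl oxidase to elastin, by -0.54 and -0.38. Emilin2 was lower with the MeOH eluate (-0.50), and Ltbp2, a binding partner of fibrillin, with WS1442 (-0.91, with a DMSO mean of 5.24).

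Matricellular and basement membrane glycoproteins had more higher than lower calls at 24 h, with 7 higher and 2 lower of 13 tested for WS1442, and 7 higher and 3 lower for the MeOH eluate. The median was 0.30 and 0.47, beside 0.04 and 0.01 over all genes. Thbs1 (thrombospondin 1) was higher by 0.75 and 0.92, and Ccn1 by 0.51 and 0.81, while Tgfbi was lower with both (-0.73 each). Thbs2 was not well above background on any DMSO array at 24 h, against 3 and 2 of 3 arrays with WS1442 and the MeOH eluate. From the means alone it was at least 1.67-fold and 1.64-fold higher, bounds that leave out the spread between arrays. The adjusted p of 0.00605 and 0.00780 in the linear model used DMSO signals below background. At 24 h only WS1442 cleared the background on all its arrays, so these values may not be independent of the filter. Sparcl1 was higher at 24 h by 1.04 and 1.63, with 1 of 2 DMSO arrays measured; at 6 h it passed the test for WS1442 while below background in both groups, so no fold is given. At 6 h the MeOH eluate had 3 higher and 2 lower, among them Ccn1 (0.41), Tgfbi (0.36) and Ecm1 (-0.42), and WS1442 had only the Sparcl1 call.

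Of the 10 fibronectin receptor genes, all integrin subunits, 2 were higher and 1 lower for WS1442 at 6 h and 3 higher and 2 lower for the MeOH eluate. Itga5, whose product pairs with integrin β1 as the classical fibronectin receptor, was lower with both at 6 h (-0.52 and -0.47), and Itga8 was higher (0.91 and 0.69). Itgb5 was higher with both (0.21 and 0.30) and Itgb3 lower with the MeOH eluate (-0.99). Itga4 was not well above background in DMSO at 6 h but was so on 3 MeOH eluate arrays. From the means alone it was at least 1.74-fold higher with the MeOH eluate. The adjusted p of 0.00827 in the linear model used DMSO signals below background, and the rise may not be independent of the filter. At 24 h, 2 were higher and 1 lower with WS1442, and 1 higher and 1 lower with the MeOH eluate. Itga9 was lower with both (-0.59 and -0.90), Itgb1 higher with WS1442 (0.32), and Itgb6 higher with both (2.01 and 2.39), with 1 of 2 DMSO arrays measured.

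Among 17 large and cell surface proteoglycans, 1 was higher with WS1442 at 6 h, and 1 higher and 1 lower with the MeOH eluate. Sdc4 (syndecan 4), which binds fibronectin beside integrins, was higher at 6 h by 0.41 and 0.91 (adjusted p = 0.00311 and 5.44e-07), and Cspg4 was lower with the MeOH eluate (-0.57). At 24 h, 3 were higher and 4 lower with WS1442, and 3 higher and 2 lower with the MeOH eluate. The glypicans Gpc3 (-0.43 and -0.81) and Gpc1 (-0.52 and -0.26) were lower with both, and Agrn was higher with both (0.29 and 0.35). Prg4 was called higher for WS1442 (0.64) and Sdc2 for the MeOH eluate (0.36).

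The remaining 2 lists held few calls. Of 20 glycosaminoglycan chain enzymes, 2 were higher and 0 lower for WS1442 at 6 h (Chst11, 0.33, and Ugdh, 0.31), 2 higher and 2 lower for the MeOH eluate at 6 h, 2 higher and 1 lower for WS1442 at 24 h, and 0 higher and 3 lower for the MeOH eluate at 24 h (Xylt2, -0.40, Chsy1, -0.23, and Ext1, -0.21). At 6 h with the MeOH eluate Chst11 had 0.43, B3gat3 0.22, Ext1 -0.34 and Chst14 -0.26, and at 24 h with WS1442 B3gat3 had 0.32, Dsel 0.29 and Chst12 -0.27. Of the 13 other small leucine-rich proteoglycans only 4 passed the background filter. Nyx was higher with WS1442 at 24 h (0.95) and Tsku lower with the MeOH eluate at 24 h (-0.20).

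**Figure D4:**
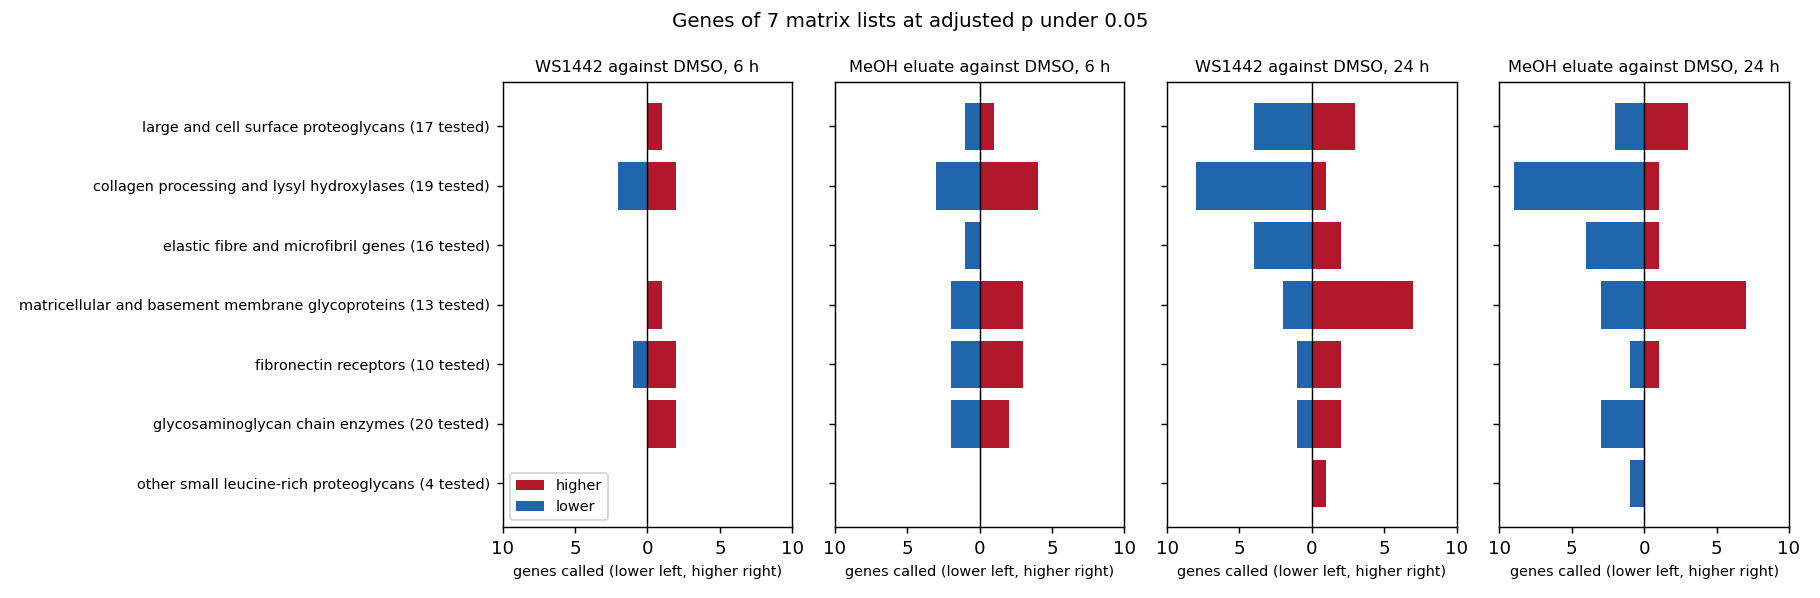
Number of genes with adjusted p under 0.05 (x axis, lower to the left and higher to the right of 0) in 7 lists of matrix genes (y axis, with the number tested), for the 4 comparisons with DMSO. At 24 h collagen processing genes lie to the left, 8 and 9 lower against 1 higher, and matricellular glycoproteins to the right, 7 higher against 2 and 3 lower.

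The annotated genes whose signal went most alike with each tested gene were found by Pearson's r over the 16 arrays, after removal of the mean of each time point. These are the top of a ranking over many genes and carry no test, and the arrays share groups, so r follows the group means. Bgn went with Tbx3 (r = 0.97) and Kdm6b (0.97), Loxl4 with Hspb8 (0.97) and Irx3 (0.96), and Loxl2 with Smtnl2 (0.97) and Itpr3 (0.96). Loxl1 went with Myl12b (0.95) and Ost4 (0.92), Loxl3 with Lrrc29 (0.91) and Foxd2 (0.91), and Fn1 with Nme7 (0.90) and Nmb (0.88). The dim probes had lower values, with Lox beside Arid5b (0.85) and Ctu1 (0.84), and Dcn beside Gm6297 (0.86) and Trim7 (0.81). Among the 8 genes themselves r ran from -0.68 between Loxl1 and Bgn to 0.66 between Loxl2 and Loxl4.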

How the data were processed

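RNA was labelled with cyanine 3 and hybridised to 1-colour Agilent arrays of 62912 spots. The authors deposited scanner files with spot intensities from Feature Extraction, background corrected within the array, and a table of intensities on a linear scale that they had quantile normalized over all samples. The scanner intensities were taken as log2, with spots flagged as non-uniform left out. They were quantile normalized over 16 arrays with limma 3.58.1 in R 4.3.3, and then spots of 1 probe were averaged. A probe was kept if it cleared the background (Feature Extraction's flag) on all arrays of 1 group or more; a gene was read from its brightest kept probe. The gene column held a symbol for 12642 of 60273 probes, 29853 were named by RefSeq accession and 17778 had none. A model with 6 group means and trended empirical Bayes variances was fitted, with Benjamini-Hochberg adjustment over all genes. The deposited log2 table differed from these signals by at most 0.03 for the 8 always detected probes, after removal of each probe's mean offset. Depth is not defined for arrays; their number, 2 or 3 a group, limits precision.

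The genes and lists were chosen with earlier results of these data known. Named were the 10 genes at every probe, from each list and DMSO comparison up to 3 called genes of largest fold, and the first 2 alike genes. Alternatives changed scaling, background correction, filter, probes, model, blocks and table, ran the methods' t-test, and left out each of the 16 arrays in turn.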

Additional observations from a re-analysis of the deposited data

Results flagged for a closer look

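The following 7 results stood out because the effect of a preparation against DMSO differed between 6 h and 24 h by the interaction term of the linear model. For Loxl2 the effect at 24 h minus that at 6 h was -0.87 on the log2 scale with WS1442 (SE 0.20, adjusted p = 0.0120) and -1.47 with the MeOH eluate (SE 0.20, adjusted p = 0.000295). With the MeOH eluate it was called higher at 6 h and lower at 24 h, whereas with WS1442 it was not called at 24 h. For Loxl4 the difference was -0.76 with WS1442 (SE 0.14, adjusted p = 0.00525) and -1.11 with the MeOH eluate (SE 0.14, adjusted p = 0.000203), from a rise at 6 h to no call at 24 h. For Bgn it was -0.93 with WS1442 (SE 0.19, adjusted p = 0.00790) and -0.996 with the MeOH eluate (SE 0.19, adjusted p = 0.00479). For Loxl3 it was 0.63 with WS1442 (SE 0.16, adjusted p = 0.0214). With 2 or 3 arrays a group, no group was large enough for a check of single outlying arrays.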

How the results depend on the processing

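Of 25 called effects of single genes, 14 kept direction and call under every alternative run other than the methods' t-test, among them Loxl4 and Loxl2 with the MeOH eluate at 6 h, Loxl1 and Loxl2 with it at 24 h, Bgn with both at 24 h, and the time differences of Loxl4 and Bgn. Of 1752 values for single genes under alternatives, 1675 kept their direction and side of the threshold, 68 lost a call, 8 gained one and 1 reversed, that of Fn1 for WS1442 at 24 h, -0.29 under 75th percentile scaling. The methods' t-test, on 2 against 3 arrays, called 0 of the 8 genes after Benjamini-Hochberg adjustment in each of the 6 comparisons of groups. Of the list genes it called 0 in the 4 comparisons with DMSO (109 in the linear model) and 0 and 2 between the preparations at 6 h and 24 h, and over all genes 0, 7, 11 and 313 against DMSO and 44 and 210 between the preparations; at the study's limits it passed 0, 2, 0 and 1 of the 8 genes, and 58, 485, 272 and 450 of all genes, against DMSO. It and the within-time fit give no time difference.

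The number of the 8 genes called for WS1442 at 6 h went from 3 to 1 in a fit within the time point and 1 with a replicate block, and for the MeOH eluate at 6 h from 5 to 2 with the block. For WS1442 at 24 h it went from 1 to 2 under 75th percentile scaling and 2 within the time point. Between the preparations at 6 h it went from 2 to 1 without a background filter, within the time point and with the row of the slide as a block. The causes were not tested. Deviations of same-numbered arrays correlated at -0.23 to 0.30 (over 0.1 in 2 of 14 pairs). Groups of 2 or 3 cannot show or exclude pairing.

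With each array left out in turn, the counts ranged from 0 to 3 for WS1442 at 6 h (0 without DMSO 6 h replicate 1, 1 without WS1442 6 h replicate 3), 2 to 5 for the MeOH eluate at 6 h (2 without DMSO 6 h replicate 1, and 3 without DMSO 6 h replicate 2 or MeOH eluate 6 h replicates 1 or 3), 1 to 1 for WS1442 at 24 h and 3 to 4 for the MeOH eluate at 24 h. They were 1 to 2 and 3 to 3 between the preparations at 6 h and 24 h, 2 to 4 for the WS1442 time difference (2 without DMSO 6 h replicate 1), 3 to 4 for that of the MeOH eluate, and 77 to 109 for the lists over the 4 comparisons with DMSO. In these, in the order WS1442 and MeOH eluate at 6 h, then at 24 h, they were 2 to 12, 10 to 25, 17 to 38 and 25 to 37. A group left with 1 array is assumed to vary like the others.

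Over all genes, the 1649 calls for WS1442 at 6 h became 424 within the time point, 934 without a variance trend, 549 with the replicate block, 237 without DMSO 6 h replicate 1, and 576 without WS1442 6 h replicate 3. Single arrays also moved the count for the MeOH eluate at 6 h from 5252 to 1980, 3499 and 3329 (DMSO 6 h replicates 1 and 2, MeOH eluate 6 h replicate 3), and those at 24 h from 7611 to 4038 and from 5539 to 3472 (DMSO 24 h replicate 1). The block also took the time differences from 3857 to 1967 and from 2324 to 1452, and between the preparations at 6 h 3781 became 1677 within the time point and 2342 with the row block. Between the preparations single arrays took 3781 to 2133 and 1483 (WS1442 6 h replicates 2 and 3) and to 1574 and 1748 (MeOH eluate 6 h replicates 1 and 3), and at 24 h 4465 to 2026 and 2470 (replicate 3 of WS1442 and of MeOH eluate). The time difference for WS1442 became 1509, 1766 and 2370 (DMSO 6 h replicate 1, DMSO 24 h replicate 1, WS1442 24 h replicate 3), and that for the MeOH eluate 1330 (DMSO 6 h replicate 1). The list count for WS1442 at 6 h was 3 within the time point, 5 without a variance trend and 3 with the replicate block, and at 24 h 23 with array weights. Under 75th percentile scaling the share of calls that were higher went from 50.6% to 40.3% for WS1442 and from 52.4% to 42.3% for the MeOH eluate at 24 h, from 37.9% to 24.7% between the preparations at 6 h, and from 44.4% to 31.5% for the WS1442 time difference. Dim signal limits the values of Lox and Dcn.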
